A study of Mus musculus with 23 samples.

Results

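Livers of Ctnnb1 knockout and wild-type mice were compared while both were exposed to phenobarbital, using 11 of the 23 arrays of the study. The 7 knockout and 4 wild-type samples were taken by their group labels alone. All mice were male C3H/He, and all 11 received 0.05% phenobarbital in the diet for 12 weeks. In the knockout mice, Cre recombinase driven by the albumin promoter, which acts in hepatocytes, deleted the part of Ctnnb1 between loxP sites placed around exons 3 and 6. The floxed line and the Cre line were backcrossed into C3H/N before they were crossed with each other, and the labels do not say whether the wild-type mice carried either allele. The remaining 12 arrays, 7 knockout and 5 wild type without phenobarbital (the labels name water as vehicle), entered the fit and gave the genotype difference without the drug. The labels number the samples of a group without saying that each came from its own animal, so the tests rest on the spread among samples, which may be technical. RNA of whole liver was measured on Affymetrix arrays, 1 array per sample, as log2 signal per probe set. The number of arrays limits the precision.

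Beta-catenin, the product of Ctnnb1, carries the canonical Wnt signal into the nucleus, where it joins TCF/LEF transcription factors. In liver, Wnt ligands from the endothelium of the central vein maintain the perivenous programme of the neighbouring hepatocytes, which includes glutamine synthesis and much of drug oxidation, while periportal hepatocytes carry out gluconeogenesis and ureagenesis. Phenobarbital activates the constitutive androstane receptor (CAR), which induces cytochromes P450, conjugating enzymes and transporters, largely in the perivenous zone. The comparison addresses how gene expression differs with and without hepatocyte beta-catenin while this stimulus is present.

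Ctnnb1 itself read 12.03, 12.10, 12.07 and 12.09 in the wild-type arrays and 12.08 to 12.37 (median 12.18) in the knockout arrays. The difference did not pass the test (log2 difference 0.12, SE 0.058, adjusted p = 0.162), and none of its 3 probe sets did. A probe set outside the deleted exons checks nothing, and the positions of these probe sets are not given, so the deletion was not measured here. With weights estimated for each array the adjusted p was 0.0446, and over all alternatives it ranged from 0.0446 to 0.601. The tissue label was borne out by the markers of hepatocytes. All 13 measured markers lay above the 40th percentile of the array, the level that the filter used (4.56 on average), in each of the 11 arrays. Their mean per array was 13.21 to 13.28 in wild type and 13.22 to 13.39 in knockout. Albumin (Alb) read 14.68, 14.70, 14.67 and 14.67 in wild type and 14.74 to 14.82 (median 14.76) in knockout (difference 0.09, adjusted p = 0.0518, and 0.0156 to 0.249 over all alternatives).

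The knockout arrays differed among themselves more than the wild-type arrays did. The lowest correlation between arrays was 0.968 in knockout and 0.995 in wild type, and the median SD per gene was 0.136 and 0.0937. Macrophage markers were among the genes that varied between them. The mean of 31 macrophage markers was 6.25 to 6.39 in wild type, and 7.67, 6.87, 7.86, 8.74, 8.92, 7.19 and 8.70 in knockout replicates 1 to 7. Replicates 4, 5 and 7 had the highest values and replicates 2 and 6 the lowest, so results are also given without replicates 4, 5 and 7 where that mattered. These 3 arrays were picked for their macrophage mean after the data were seen, and a smaller difference in immune genes without them is therefore built into the choice.

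Of 13826 genes tested, 2772 (20%) differed between the genotypes under phenobarbital, called at a Benjamini-Hochberg adjusted p under 0.05. In knockout 1649 were higher (11.9%) and 1123 lower (8.12%). Differences of at least 2-fold were found for 277 higher (2%) and 127 lower genes (0.919%). The arrays of the groups did not overlap for 2576 genes (18.6%), with knockout above in 1555 (11.2%), and 2060 of these were also called. The median difference of all genes was 0.0024. Without wild-type replicate 3 or 4 the number of called genes was 1798 or 1846. Without knockout replicates 4, 5 and 7 it was 1266 (717 higher and 549 lower), of which 1191 were among the 2772. Gene lists are described below by the number of members called and the median difference, to be read against the shares of all genes given here. List counts without knockout replicates 4, 5 and 7 are to be read against the 717 higher and 549 lower genes of that setting. With fewer arrays fewer genes are called in any list, so a lost call alone does not tie a list to those arrays. The plot of gene lists sets these shares side by side.

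**Figure D1:**
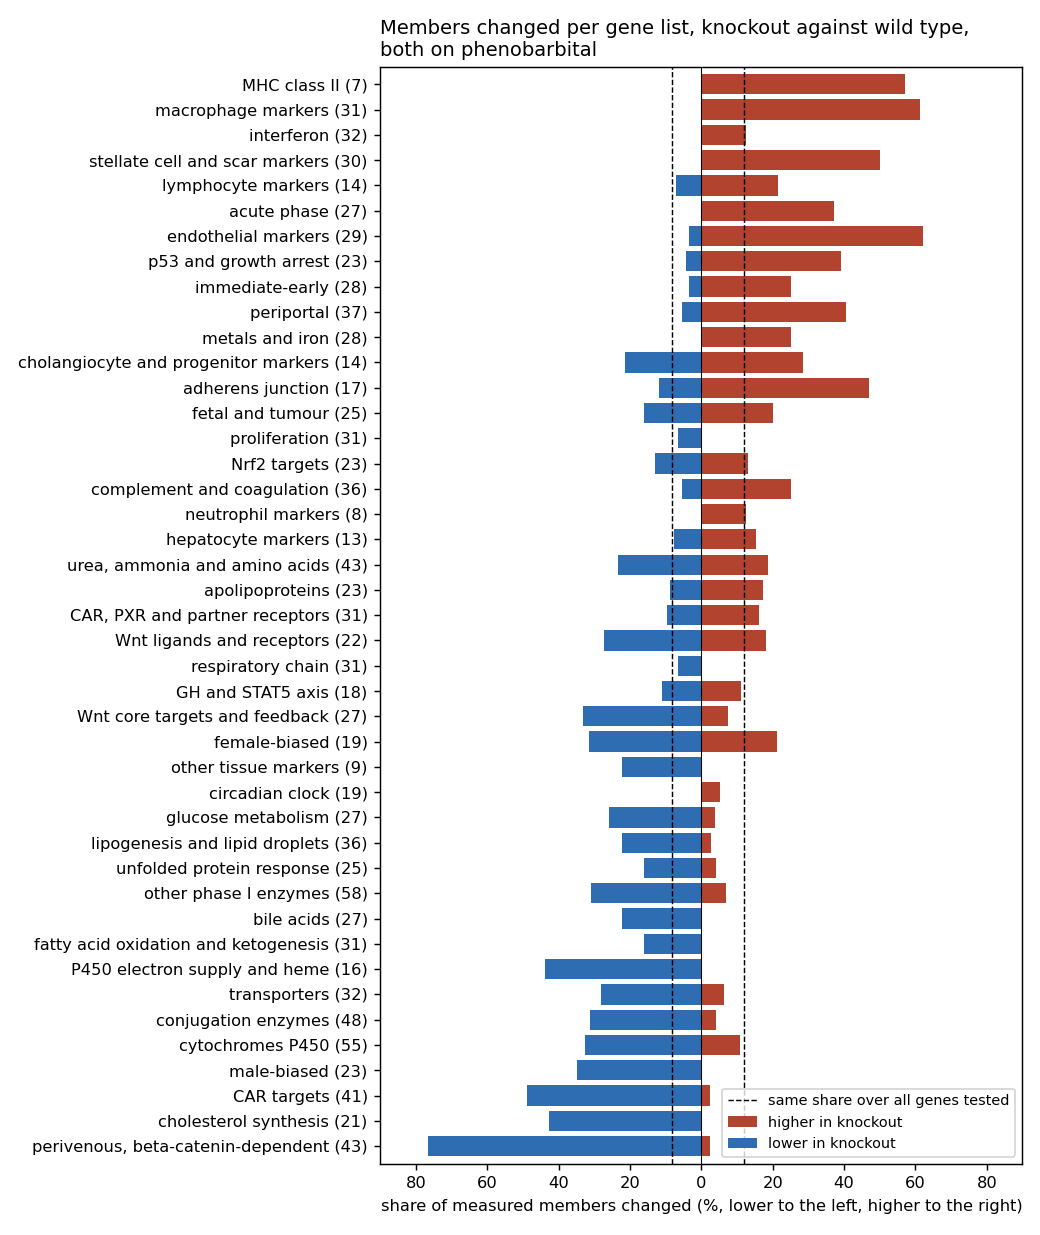
Share of the measured members of each gene list that were higher (right, red) or lower (left, blue) in knockout than in wild type under phenobarbital, in percent, with the number of measured members in brackets. Lists are ordered by their median difference, the imprinted and erythroid lists (4 and 3 members) are not drawn, and dashed lines mark the shares over all genes tested, 11.9% higher and 8.12% lower. The list of perivenous, beta-catenin-dependent genes had the longest bar of lower members (76.7%). Endothelial and macrophage markers had the longest bars of higher members (62.1% and 61.3%).

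Perivenous genes were lower in knockout by up to about 87.3-fold. The list used for them holds genes taken to be both perivenous and beta-catenin-dependent, and it was chosen with earlier results of these data known. Lower values in knockout are therefore partly built into the list. Of its 43 measured genes, 33 were lower and 1 was higher, with a median difference of -1.503. For 36 of them every knockout array lay below every wild-type array, as it did for 7.38% of all genes. The mean of the list per array was 10.14 to 10.24 in wild type and 8.20 to 8.52 in knockout, so the groups lay far apart and the 7 knockout arrays close together. Without knockout replicates 4, 5 and 7, 31 were lower and 0 higher. In RNA of whole liver, fewer cells of a type and less RNA per cell cannot be told apart.

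Cyp2e1, the cytochrome P450 that oxidizes ethanol and paracetamol, read 14.17, 14.09, 14.14 and 14.06 in wild type. In knockout it read 6.79 to 8.58 (median 7.62). The difference was -6.45 (SE 0.38, adjusted p = 5.81e-11). Lect2, a secreted chemotactic protein of hepatocytes, read 11.78, 11.58, 11.91 and 11.77 in wild type and 5.32 to 7.51 (median 6.15) in knockout (-5.54, SE 0.40, adjusted p = 1.95e-09). Gulo, which makes vitamin C, fell from 10.75 to 11.14 in wild type to 5.91 to 7.15 in knockout (-4.56, SE 0.21, adjusted p = 6.3e-13). No array of either group overlapped with the other for these genes. The gluconolactonase Rgn acts in the same pathway as Gulo and was lower by a similar amount (-4.53, SE 0.48, adjusted p = 8e-07), with 7.83 to 10.61 in knockout against 13.18 to 13.31. The dicarboxylate transporter Slc13a3 read 8.25 to 8.63 in wild type and 4.15 to 4.78 in knockout. It was above the filter's level in only 1 of 7 knockout arrays, and its difference of -4.03 was -3.82 when values were raised to that level. The vasopressin receptor Avpr1a (-3.48, SE 0.17) and the fatty aldehyde dehydrogenase Aldh3a2 (-2.91, SE 0.28) were lower too.

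Enzymes and carriers of perivenous ammonia and glutamate handling were lower. Glutamine synthetase, Glul, fixes ammonia that escaped ureagenesis, and read 11.78, 11.61, 11.70 and 11.54 in wild type and 7.68 to 9.30 (median 8.72) in knockout (-3.10, SE 0.29, adjusted p = 1.03e-07). Ornithine aminotransferase, Oat, supplies it with glutamate and read 11.42, 11.35, 11.51 and 11.44 against 6.93 to 7.70 (median 7.21). Its difference was -4.22 (SE 0.23, adjusted p = 1.06e-11), and it was -4.22 without phenobarbital as well. The ammonium transporter Rhbg was lower by 1.503 (adjusted p = 5.71e-08). The glutamate transporter Slc1a2 read 6.21, 5.91, 5.90 and 6.21 in wild type and 4.51 to 5.04 in knockout (-1.28, SE 0.20, adjusted p = 8.55e-05), with 3 of its 5 probe sets lower. Of all 43 measured genes of urea, ammonia and amino acid metabolism, 10 were lower and 8 higher (median 0.035). Those higher included Aldh18a1, which makes proline and ornithine precursors (1.66, adjusted p = 0.0422). Its signal was below the filter's level in every wild-type array, its difference was 0.61 against that level, and 1 of its 5 probe sets was called. That call ended without any 1 of the 4 wild-type arrays or of knockout replicates 1, 4, 5 and 7 (adjusted p 0.0529 to 0.0926, and 0.00442 to 0.336 over all alternatives).

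Among Wnt targets and feedback regulators the picture was divided. Of 27 measured, 9 were lower and 2 higher, and the median difference was -0.058. Axin2, a scaffold of the complex that degrades beta-catenin and a general Wnt target, read 6.44, 6.15, 6.45 and 6.75 in wild type and 5.40 to 5.95 (median 5.80) in knockout (-0.73, SE 0.11, adjusted p = 0.000123). The ubiquitin ligases Rnf43 (-1.68, adjusted p = 5.67e-10) and Znrf3 (-0.51, adjusted p = 0.00143), which remove Wnt receptors from the cell surface, and the Wnt-inactivating enzyme Notum (-1.24, adjusted p = 8e-07) were lower as well. These are negative regulators of the pathway that are themselves its targets. Tbx3, a transcription factor of perivenous hepatocytes, read 7.02, 6.44, 6.71 and 7.10 in wild type and 2.87 to 3.24 in knockout. Every knockout array was below the filter's level, so the size of its difference (-3.76, SE 0.14, adjusted p = 1.43e-14) is uncertain, and against that level it was -2.26. Tnfrsf19, a receptor of the tumour necrosis factor family, behaved alike, with 6.73 to 7.02 against 3.34 to 3.96 (-3.19, or -2.34 against the level). Cd44, the hyaluronan receptor, was the member with the largest positive difference (2.28, adjusted p = 0.0373). It was below the filter's level in all wild-type arrays, and the call ended without any 1 of them, without any 1 of knockout replicates 3, 4, 5 and 7 (0.0526 to 0.0829) and without replicates 4, 5 and 7 together (0.314), over a range of 0.00382 to 0.314 in all alternatives. Ccnd1, cyclin D1, read 7.02 to 7.36 in wild type and 7.30 to 10.05 (median 8.04) in knockout and did not pass (1.54, adjusted p = 0.0925, and 0.011 to 0.597 over all alternatives).

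Of 22 ligands and receptors of the pathway, 4 were higher and 6 lower. Lgr5, the receptor of R-spondins, read 5.42, 5.60, 5.27 and 5.73 in wild type and 4.27 to 4.67 (median 4.54) in knockout (-1.02, SE 0.14, adjusted p = 2.06e-05). Its difference without phenobarbital was larger (-2.12), and the interaction was called (1.09, adjusted p = 0.00378). In contrast, the R-spondin gene Rspo3, whose product is released by endothelium of the central vein, was higher in knockout, at 6.74 to 7.35 against 5.58 to 6.21 (1.12, SE 0.12, adjusted p = 1.43e-06). Wls, needed to secrete Wnt ligands, was higher by 0.93 (SE 0.23, adjusted p = 0.00736), a call that ended without knockout replicates 4, 5 and 7 (0.0863, and 0.00019 to 0.0863 over all alternatives). The endothelial marker list, to which Rspo3 also belongs, was higher in the same arrays (mean per array 6.70 to 7.05 against 6.34 to 6.54), and its part in the Rspo3 result was not tested.

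**Figure D2:**
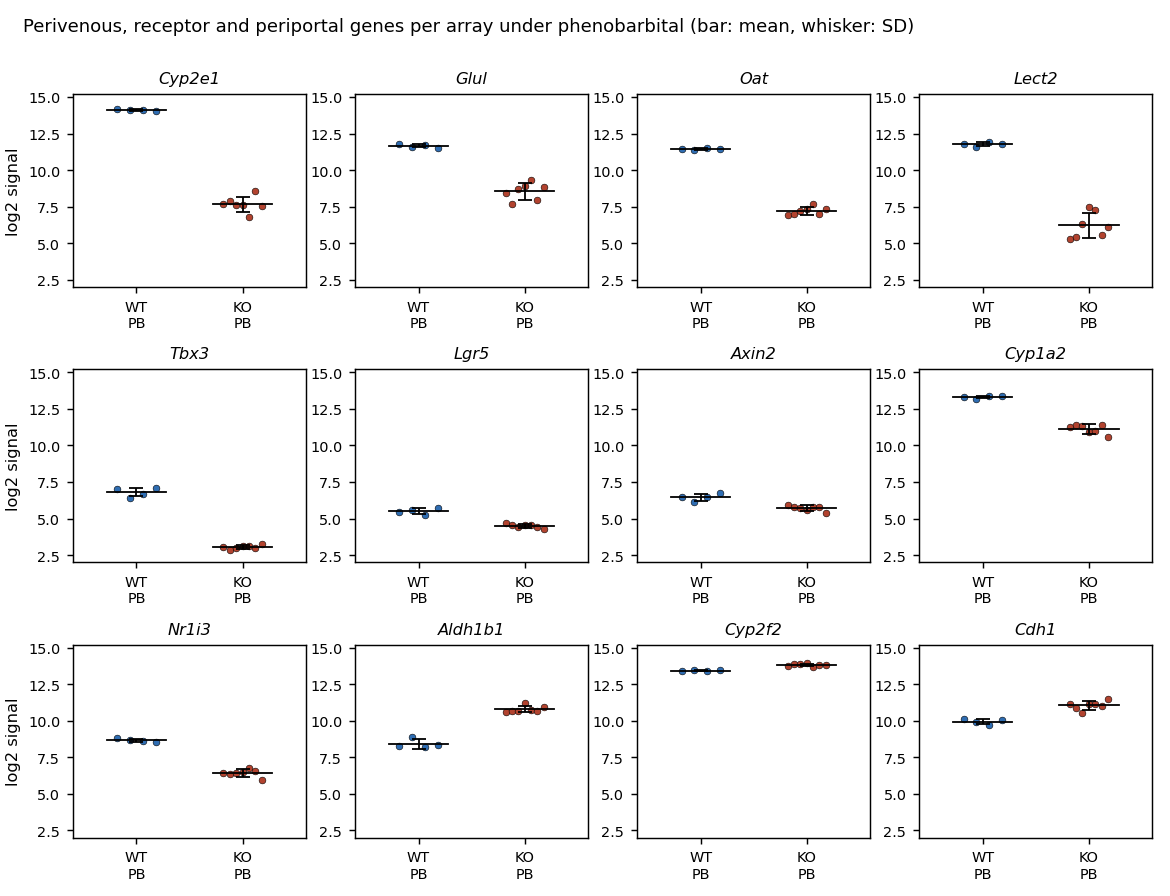
Log2 signal of 12 genes in each array under phenobarbital, with 4 wild-type (WT PB, blue) and 7 knockout arrays (KO PB, red) per panel. Horizontal bars are group means and whiskers 1 SD. In the perivenous genes and Nr1i3 no knockout point reaches the wild-type points, whereas Aldh1b1, Cyp2f2 and Cdh1 lie higher in knockout.

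Promoter sequences of RefSeq genes (build GRCm38.p6) were searched for CTTTGA, the core of the sequence that TCF/LEF factors bind, on both strands. The window ran from 250 bases before to 50 bases after each gene's start, and 11120 of the 13826 genes had at least 1 such window (14164 in all). The letters were present in 12.6% of all windows, in 22.3% of 139 windows of genes lower by at least 2-fold, and in 11.9% of 260 windows of genes higher by at least 2-fold. Of 31 windows of 24 genes of the perivenous, beta-catenin-dependent list that were lower, 10 held a match (32.3%). The windows of Glul, Oat, Avpr1a and Axin2 had none, which says only that the letters are not in this stretch. A match is a description of the sequence and was not tested as a binding site. The strict DR4 direct repeat, the kind of element that CAR binds, was searched on both strands too. It was found in 2 of the 14164 windows and in none of those of changed genes. With so few matches in all, their absence from changed genes says nothing about CAR, and sequence outside the windows was not searched. The 250 bases before the start are shown for 4 genes of the perivenous and Wnt target lists that were lower in knockout. These 4 were picked because they hold a match, so they are not typical of the lists. Tnfrsf19 has 2 windows, of which 1 with a match is shown. The sequences run 5′ to 3′ on the strand of the gene, with each match to CTTTGA or its complement TCAAAG in capitals. They show where in the promoter of these members the letters lie: once in Cyp2e1 (chr7:140763569-140763818, plus strand), Lect2 (chr13:56548539-56548788, minus strand) and Tnfrsf19 (chr14:61037988-61038237, minus strand) and at 2 places in Slc1a2 (chr2:102706188-102706437, plus strand).
Cyp2e1: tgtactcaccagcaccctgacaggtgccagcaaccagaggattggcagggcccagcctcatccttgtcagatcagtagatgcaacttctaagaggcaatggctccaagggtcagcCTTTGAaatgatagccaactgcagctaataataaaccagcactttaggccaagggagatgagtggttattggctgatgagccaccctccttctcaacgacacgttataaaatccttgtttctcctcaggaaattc
Lect2: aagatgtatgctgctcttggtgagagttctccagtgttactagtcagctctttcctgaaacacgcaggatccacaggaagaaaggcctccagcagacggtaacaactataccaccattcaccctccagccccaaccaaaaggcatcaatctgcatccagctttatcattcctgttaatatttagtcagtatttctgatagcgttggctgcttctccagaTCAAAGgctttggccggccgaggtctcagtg
Tnfrsf19: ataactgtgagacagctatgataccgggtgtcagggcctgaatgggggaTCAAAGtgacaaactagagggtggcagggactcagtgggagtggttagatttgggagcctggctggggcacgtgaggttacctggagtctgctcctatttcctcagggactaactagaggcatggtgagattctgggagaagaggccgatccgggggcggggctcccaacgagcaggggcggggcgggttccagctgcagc
Slc1a2: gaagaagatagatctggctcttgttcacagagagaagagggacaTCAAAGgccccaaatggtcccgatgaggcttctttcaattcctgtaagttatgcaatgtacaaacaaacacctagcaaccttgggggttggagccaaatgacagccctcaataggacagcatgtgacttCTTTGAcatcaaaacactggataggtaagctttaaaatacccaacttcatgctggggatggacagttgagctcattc

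Periportal genes that were called were mostly higher in knockout, and the median of their list was nearer to no difference than that of the perivenous list. Of 37 measured, 15 were higher, 2 lower and 20 not called, with a median difference of 0.26. Without knockout replicates 4, 5 and 7, 12 were higher and 1 lower. The aldehyde dehydrogenase Aldh1b1 read 8.25, 8.92, 8.19 and 8.30 in wild type and 10.61 to 11.18 (median 10.69) in knockout (2.36, SE 0.19, adjusted p = 1.34e-08). Cyp2f2, a periportal cytochrome P450, read 13.41, 13.45, 13.39 and 13.45 against 13.67 to 13.91 (0.38, SE 0.063, adjusted p = 0.000208). Histidine ammonia lyase, Hal, was higher by 0.77 (adjusted p = 0.00576). The 2 members that went the other way were Mfsd2a, a lysophospholipid transporter (-2.01, SE 0.28, adjusted p = 3.59e-05), and the IGF-binding protein Igfbp2 (-1.49, SE 0.45, adjusted p = 0.0227). For Igfbp2 the call ended without wild-type replicate 1, 3 or 4 (0.0512 to 0.0635) and without knockout replicates 4, 5 and 7 (0.0836), over a range of 0.00278 to 0.0836 in all alternatives. The urea cycle enzymes Cps1 (0.11) and Arg1 (0.15) and the gluconeogenic Pck1 (0.26) did not pass the test.

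Beta-catenin also links cadherins to the cytoskeleton, and of 17 genes of cell junctions 8 were higher and 2 lower (median 0.17). E-cadherin, Cdh1, which is at the same time a periportal gene, read 10.11, 9.92, 9.68 and 10.02 in wild type and 10.53 to 11.48 (median 11.11) in knockout (1.11, SE 0.21, adjusted p = 0.000888). Plakoglobin, Jup, the close relative of beta-catenin, was higher by 0.31 and alpha-catenin, Ctnna1, by 0.33. Occludin, Ocln, was higher by 0.75 (adjusted p = 0.0136), a call lost without knockout replicates 4, 5 and 7 (0.126, and 0.00203 to 0.126 over all alternatives). Cldn2, a pore-forming claudin of perivenous hepatocytes, was lower (-1.10, SE 0.25, adjusted p = 0.00417), as was N-cadherin, Cdh2 (-0.54). Without knockout replicates 4, 5 and 7 the list held 4 higher and 2 lower members.

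CAR targets were lower in knockout or did not pass the test, except the aldehyde dehydrogenase Aldh1a7, which was higher. Of 41 measured, 20 were lower and 1 was higher in knockout (median -0.44), and 17 were lower without knockout replicates 4, 5 and 7. The list shares members with others, such as Cyp2c37 with the perivenous list and Meg3 with the imprinted region, so these counts are not independent. Cyp2b10, the classical target, read 12.64, 12.65, 12.70 and 12.58 in wild type and 12.51 to 12.97 (median 12.82) in knockout. The groups overlapped and the difference was 0.11 (95% interval -0.60 to 0.83, adjusted p = 0.842). Without phenobarbital knockout liver was higher by 4.06, so the interaction was -3.95 (SE 0.47, adjusted p = 4.0e-05). Cyp2c29 read 13.82 to 13.95 in wild type and 13.77 to 14.06 in knockout (0.03, adjusted p = 0.967), and Cyp3a11 14.38 to 14.44 against 14.33 to 14.46 (-0.02, adjusted p = 0.738). Both stood near the highest value on any array, 14.92. Cyp2c55 read 12.82 to 12.94 in wild type and 12.00 to 12.78 in knockout. Its groups did not overlap, although the difference of -0.33 missed the threshold (SE 0.34, adjusted p = 0.524). A p above the threshold does not show that levels were equal.

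Other CAR targets were clearly lower in knockout. Cyp2c65, a cytochrome P450 that was near background without the drug in both genotypes, read 10.17, 10.08, 10.16 and 9.98 in wild type and 5.93 to 8.03 (median 7.11) in knockout (-3.01, SE 0.27, adjusted p = 5.66e-08). Without phenobarbital its genotype difference was -0.17, and the interaction was -2.83 (adjusted p = 0.000129). Cyp2b13 read 9.36, 10.38, 10.15 and 8.25 in wild type and 5.35 to 8.92 (median 5.64) in knockout (-3.19, SE 0.48, adjusted p = 8.13e-05). Knockout replicate 5 alone reached the wild-type range. Its relative Cyp2b9 showed no such gap, with 8.08 to 9.78 against 6.73 to 10.46 (-0.10, SE 0.60, adjusted p = 0.923). Cyp2c37 read 13.19, 13.34, 13.37 and 13.25 in wild type and 11.08 to 12.30 (median 11.47) in knockout (-1.65, SE 0.37, adjusted p = 0.00343), against -3.996 without phenobarbital. That narrowing was called (interaction 2.34, adjusted p = 0.0236), but not without wild-type replicate 1, 3 or 4 or wild-type control replicate 2 (0.0514 to 0.0605, and 0.00389 to 0.0748 over all alternatives). Members of the Cyp2b and Cyp2c families are much alike in sequence, and one member's probes may pick up another's transcript.

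CAR itself, encoded by Nr1i3, was lower: it read 8.79, 8.69, 8.62 and 8.55 in wild type and 5.94 to 6.77 (median 6.44) in knockout (-2.24, SE 0.28, adjusted p = 7.19e-06). Among 31 measured nuclear receptors and partners, 5 were higher and 3 lower (median 0.011). The aryl hydrocarbon receptor Ahr read 10.20, 10.35, 10.19 and 10.21 in wild type and 9.20 to 9.64 (median 9.34) in knockout (-0.86, SE 0.14, adjusted p = 0.000228). Its target Cyp1a2, which metabolizes caffeine, read 13.33, 13.17, 13.36 and 13.40 against 10.56 to 11.41 (median 11.28), a difference of -2.19 (SE 0.19, adjusted p = 3.2e-08). The pregnane X receptor Nr1i2 (0.20, adjusted p = 0.29) and Rxra, the partner of these receptors (-0.15, adjusted p = 0.269), did not pass. The oestrogen receptor Esr1 was higher (0.90, SE 0.14, adjusted p = 0.000121) and the pioneer factor Foxa1 lower (-0.89, SE 0.26, adjusted p = 0.0179). The Foxa1 call ended without wild-type replicate 3 (0.0823) and without knockout replicates 4, 5 and 7 (0.0725), with 0.00261 to 0.0823 over all alternatives.

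Wider lists of drug metabolism, which share members with the lists above, held more lower than higher genes. Of 55 cytochromes P450, among them Cyp2e1 and others already described, 18 were lower and 6 higher (median -0.34). Of 58 other phase I enzymes 18 were lower and 4 higher, and of 48 conjugating enzymes 15 were lower and 2 higher. The oestrogen sulphotransferase Sult1e1 read 7.24, 8.31, 7.31 and 8.24 in wild type and 3.70 to 5.25 (median 4.21) in knockout (-3.51, SE 0.29, adjusted p = 1.46e-08). Only 1 knockout array was above the filter's level, against which the difference was -3.22. Nat8, which acetylates cysteine conjugates, was lower by 1.99 (SE 0.27). The glutathione transferase Gstm2 read 9.68 to 10.20 in wild type and 5.72 to 9.55 in knockout (-2.35, SE 0.72, adjusted p = 0.0249). Its call ended without wild-type replicate 2, 3 or 4 (0.0583 to 0.0614, and 0.00105 to 0.0614 over all alternatives), and Gstm genes are near-identical. The retinol dehydrogenase Rdh16f2 went the other way, with 9.26 to 10.02 in knockout against 7.02 to 7.25 (2.50, SE 0.30, adjusted p = 3.53e-06).

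Of 16 genes that supply cytochromes P450 with electrons and heme, 7 were lower and 0 higher (median -0.24). Biliverdin reductase B, Blvrb, read 10.01, 9.86, 9.95 and 9.86 in wild type and 7.82 to 8.59 (median 8.12) in knockout (-1.77, SE 0.16, adjusted p = 5.42e-08). The heme synthesis enzyme Alad was lower by 0.96 (SE 0.10, adjusted p = 1.05e-06). Of 32 transporters 9 were lower and 2 higher, and of 27 genes of bile acid metabolism 6 were lower and 0 higher. The uptake carriers Slco1b2 (-1.47, SE 0.20, adjusted p = 1.99e-05) and Slco1a4 (-1.31, SE 0.29, adjusted p = 0.00286) were lower. Knockout arrays of the efflux pump Abcc4 spread from 5.42 to 8.08 against 7.79 to 7.99 in wild type (-1.47, adjusted p = 0.00958). All of them but replicate 5 lay below every wild-type array. Cyp7a1, the rate-limiting enzyme of bile acid synthesis, read 10.44 to 10.91 in wild type and 8.99 to 10.49 in knockout and did not pass (-0.83, adjusted p = 0.0994, and 0.0238 to 0.308 over all alternatives).

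**Figure D3:**
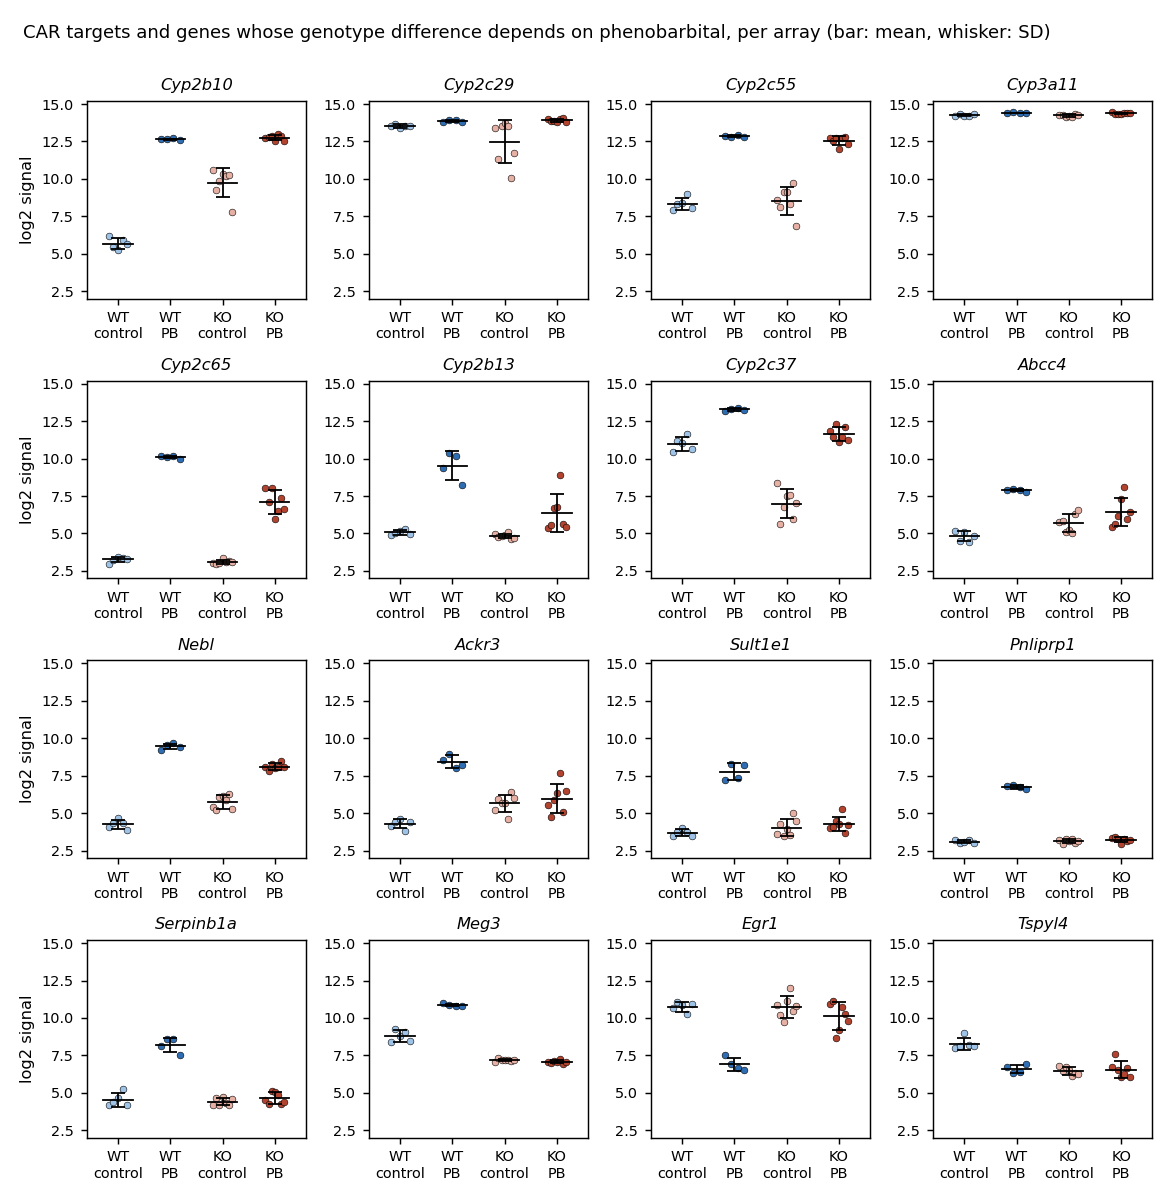
Log2 signal of 16 genes in every array of the 4 groups, with wild-type (WT) arrays in blue and knockout (KO) arrays in red, and light points without and dark points with phenobarbital (PB). Horizontal bars are group means and whiskers 1 SD. Cyp2b10, Cyp2c29 and Cyp3a11 have overlapping WT PB and KO PB points, while Cyp2c65, Sult1e1, Pnliprp1, Serpinb1a and Meg3 are high in WT PB and lower in every KO PB array.

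The genotype differences with and without phenobarbital share no array. Across all genes Spearman's rho between them was 0.716 and Pearson's r was 0.831, a description across genes, which are not independent replicates. Without the drug 3453 genes were called (25%), 2052 higher (14.8%) and 1401 lower (10.1%). In both comparisons 1000 genes were higher, 557 lower and 20 opposite in sign. Of 1195 genes called only under phenobarbital 60 had a called interaction, so for the others a difference between the comparisons was not shown. In all, the interaction, which is the genotype difference under phenobarbital minus that without it, was called for 121 genes (0.875%), 49 positive (0.354%) and 72 negative (0.521%). The count was 63 without wild-type replicate 3, 75 without replicate 1 and 78 without replicate 4.

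Several genes with large negative interactions were lower in knockout in the presence of the drug and had similar or higher levels in knockout without it. Pnliprp1, related to pancreatic lipase, read 6.82, 6.89, 6.76 and 6.60 in wild type and 2.94 to 3.39 (median 3.27) in knockout. In no knockout array was it above the filter's level, so that its difference of -3.54 (SE 0.082) was -2.21 against that level, and the difference without the drug was 0.04. Without the drug it lay below that level in both genotypes (3.00 to 3.21 in wild type, 2.96 to 3.30 in knockout). Serpinb1a, an inhibitor of neutrophil elastase, read 8.10, 8.57, 8.57 and 7.55 against 4.23 to 5.13 (-3.57, SE 0.23, adjusted p = 1.97e-10), with -0.13 without the drug. Its knockout values under phenobarbital lay near the filter's level. So did both genotypes without the drug (4.17 to 5.27 in wild type, 4.18 to 4.72 in knockout), and the size of its differences is uncertain. For the chemokine-scavenging receptor Ackr3 the sign turned: it read 8.55, 8.97, 8.05 and 8.21 in wild type and 4.75 to 7.66 (median 5.86) in knockout (-2.49, SE 0.40, adjusted p = 0.000149), but was higher in knockout by 1.35 without phenobarbital. Nebl, of the nebulin family, turned likewise, with 9.23 to 9.65 against 7.81 to 8.46 (-1.36) and a difference of 1.47 without the drug. The same held for Lratd1 (-2.35 and 1.12), Fam171a1 (-2.28 and 0.47) and Gadd45b (-0.86 and 0.96), a stress-induced growth arrest gene. Fam171a1 was below the filter's level in every knockout array under phenobarbital. Without the drug it read 3.56 to 4.26 in wild type and 4.13 to 4.59 in knockout. Those values lie near or below that level, so a higher level in knockout without the drug is not shown for Fam171a1. Kcnk1, a potassium channel, also had a negative interaction (-2.62, adjusted p = 0.0285), with 9.74 to 10.64 in wild type and 4.40 to 4.92 in knockout (-5.31, SE 0.42, adjusted p = 8.26e-09), against a difference of -2.69 without the drug. In knockout Kcnk1 lay near the filter's level, also without the drug (4.38 to 4.77), so the size of its differences and interaction is uncertain. The Kcnk1 interaction was not called without wild-type replicate 1, 3 or 4, wild-type control replicate 3, or knockout replicates 4, 5 and 7 together (0.00317 to 0.0792 over all alternatives).

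The imprinted Dlk1-Dio3 region gave 4 measured genes, of which 3 were lower and 0 higher. Meg3, a maternally expressed long non-coding RNA, read 10.999, 10.86, 10.78 and 10.83 in wild type and 6.93 to 7.27 (median 7.08) in knockout. That was a difference of -3.79 (SE 0.12, adjusted p = 4.59e-16), and all 11 of its probe sets were lower. Rian, another non-coding RNA of the region, read 7.58 to 8.27 against 4.46 to 4.81 (-3.28, SE 0.19, adjusted p = 3.5e-11). In knockout Rian lay near the filter's level, also without the drug (3.77 to 4.92), so the size of its differences and interaction is uncertain. Mirg was lower by 0.57 (SE 0.074, adjusted p = 1.54e-05). Meg3 and Rian differed less without the drug (-1.61 and -2.08), with interactions of -2.18 (adjusted p = 1.76e-08) and -1.20 (adjusted p = 0.0234). The Rian interaction was not called without wild-type replicate 1, 2 or 3, wild-type control replicate 1, or knockout replicates 4, 5 and 7 together (0.0523 to 0.0714, and 0.00189 to 0.0714 over all alternatives).

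Positive interactions came in several forms. Egr1, an immediate-early transcription factor, read 7.53, 6.92, 6.64 and 6.52 in wild type and 8.66 to 11.12 (median 10.26) in knockout (3.20, SE 0.41, adjusted p = 1.3e-05), while the difference without the drug was -0.02 (interaction 3.22, adjusted p = 0.00465). Without phenobarbital it averaged 10.76 ± 0.32 (SD, n = 5) in wild type and 10.74 ± 0.73 (SD, n = 7) in knockout, so wild type under the drug was the group with low values. For Tspyl4 and Dnaic1 the genotype difference was -0.04 and -0.07 under phenobarbital and -1.81 and -1.78 without it. Under the drug Dnaic1 lay near the filter's level in both genotypes (4.54 to 5.09 in wild type, 4.29 to 5.19 in knockout). A difference between them could hardly be seen there. Rab5c, a small GTPase of early endosomes, was higher by 0.92 (SE 0.13, adjusted p = 2.64e-05) and lower by 0.37 without the drug. The small GTPase Rnd1 turned from -0.48 to 0.64 (adjusted p = 0.0179), and its interaction was not called without any 1 of 12 arrays. Its difference under phenobarbital was not called without knockout replicates 4, 5 and 7 (0.156, and 0.00148 to 0.156 over all alternatives).

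**Figure D4:**
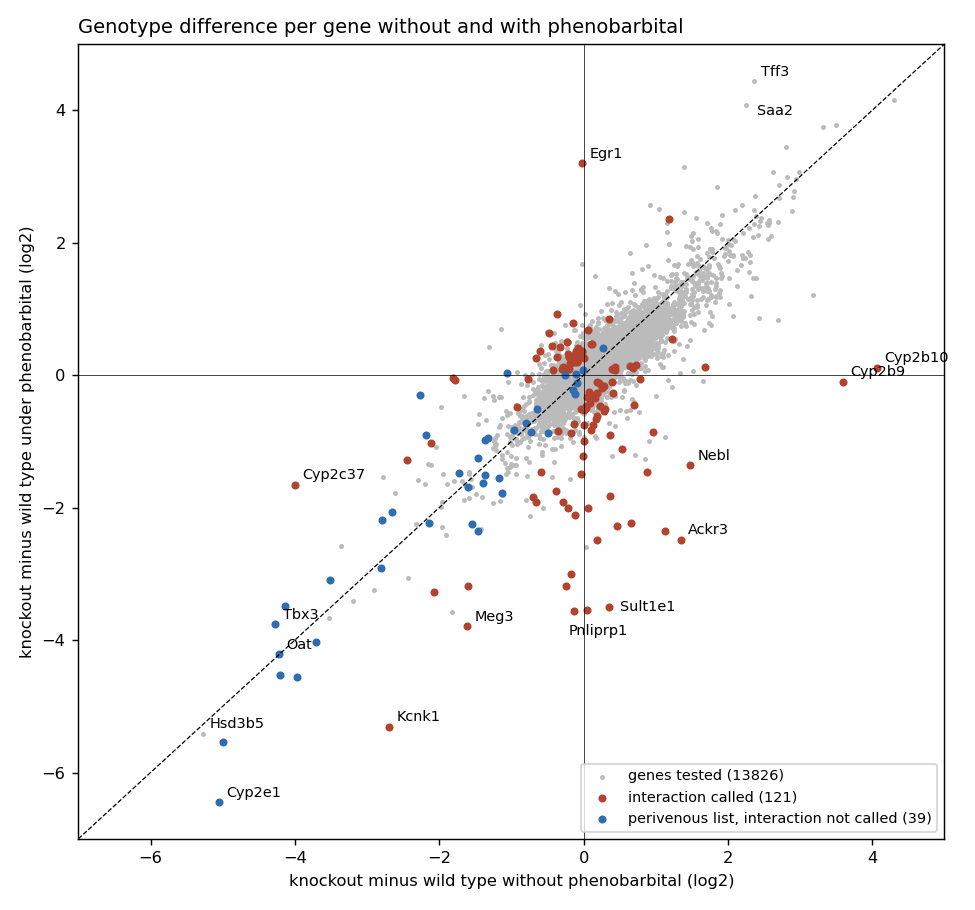
Each point is 1 of 13826 genes, placed by the log2 difference between knockout and wild type without phenobarbital (horizontal axis) and under phenobarbital (vertical axis). Red points are the 121 genes with a called interaction, blue points the perivenous genes without one, and the dashed line marks equal differences. Cyp2b10 and Cyp2b9 lie at the right near 0 on the vertical axis, Egr1 lies above 0 near the middle, and Pnliprp1, Sult1e1 and Ackr3 lie well below the line.

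Where genes of lipid metabolism were called, they were mostly lower. Of 21 genes of cholesterol synthesis 9 were lower and 0 higher, with a median difference of -0.49, and the count was the same without knockout replicates 4, 5 and 7. Hsd17b7, a reductase late in the pathway, read 10.58, 10.72, 10.43 and 10.48 in wild type and 9.10 to 9.82 (median 9.45) in knockout (-1.12, SE 0.16, adjusted p = 3.59e-05), with all 4 probe sets lower. Mvd (-0.93, SE 0.21, adjusted p = 0.0036) and Fdps (-0.89, SE 0.18, adjusted p = 0.00141), which act early in the pathway, were lower too, and for these 3 genes the groups did not overlap. For Hsd17b7, Mvd and Fdps the difference without phenobarbital was -0.44, 0.0034 and -0.31, and the interaction was not called for any of them. Hmgcs1, which opens the pathway, was also lower (-0.89, adjusted p = 0.00632), while Srebf2, the regulator of these genes, did not pass (-0.17, adjusted p = 0.12).

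Of 36 genes of lipogenesis and lipid droplets 8 were lower and 1 higher, and of 31 genes of fatty acid oxidation and ketogenesis 5 were lower and 0 higher. The fatty acid translocase Cd36 was the member that was higher, with 9.97 to 10.70 in knockout against 7.28 to 8.39 (2.48, SE 0.36, adjusted p = 5.9e-05), and all 3 of its probe sets were higher. Lipoprotein lipase, Lpl, read 9.94, 9.75, 9.18 and 10.40 in wild type and 11.14 to 12.53 (median 12.16) in knockout (2.29, SE 0.37, adjusted p = 0.000156). Among 23 apolipoproteins and lipoprotein genes 4 were higher and 2 lower, and Apoa1 (-0.04) did not pass. The pyruvate dehydrogenase kinase Pdk4 read 6.66 to 7.24 against 4.77 to 5.60 (-1.88, SE 0.26, adjusted p = 2.84e-05), and liver pyruvate kinase Pklr was lower by 1.11 (SE 0.17, adjusted p = 8.31e-05). Of 27 genes of glucose metabolism 7 were lower and 1 higher. Without knockout replicates 4, 5 and 7, 3 lipogenic, 3 oxidation and 4 glucose genes were lower.

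Genes that are higher in male than in female liver were lower in knockout or did not pass: of 23, 8 were lower and 0 higher (median -0.43). Without knockout replicates 4, 5 and 7, 2 were lower and the list median was -0.18, while lower calls over all genes fell from 1123 to 549. Hsd3b5, a steroid dehydrogenase of male liver, read 12.55, 12.27, 12.49 and 12.59 in wild type and 3.77 to 10.91 (median 6.11) in knockout. The wild-type arrays were alike, while the knockout arrays covered a range of over 7 log2 units (-5.41, SE 1.59, adjusted p = 0.0201). The call ended without wild-type replicate 3 or 4 (0.0505 and 0.051) and without knockout replicates 4, 5 and 7 (0.224), with 0.00149 to 0.224 over all alternatives. Elovl3, a male-biased fatty acid elongase, read 12.55 to 12.68 against 7.05 to 11.82 (-2.57, SE 0.77, adjusted p = 0.022), and its call ended without wild-type replicate 1, 3 or 4 (0.0527 to 0.0555) and without knockout replicates 4, 5 and 7 (0.204), with 0.00214 to 0.204 over all alternatives. The mean of the list per array was lowest in knockout replicates 4, 5 and 7, those with the highest macrophage means, whose part in the result was not tested. Of 19 female-biased genes 4 were higher and 6 lower. The growth hormone receptor Ghr was lower by 0.35 (adjusted p = 0.0215), and of 18 genes of the growth hormone and STAT5 axis 2 were higher and 2 lower. The Ghr call ended without wild-type replicate 3 or 4 (0.0558 and 0.0625) and without knockout replicates 4, 5 and 7 (0.143), with 0.00119 to 0.143 over all alternatives.

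The largest rise was that of Tff3, a trefoil peptide of mucous epithelia, which read 7.24, 6.04, 6.51 and 7.37 in wild type and 10.22 to 12.34 (median 10.97) in knockout (4.44, SE 0.48, adjusted p = 9.71e-07). The metallothionein Mt1, which binds zinc and copper, read 8.59, 8.72, 7.85 and 8.43 against 10.86 to 12.66 (median 11.91), a difference of 3.45 (SE 0.45, adjusted p = 1.38e-05). Mt2 was higher by 3.07 (SE 0.61, adjusted p = 0.00124). Of 28 genes of metal and iron handling 7 were higher and 0 lower, also without knockout replicates 4, 5 and 7. Hepcidin, Hamp, which limits iron release, read 12.37 to 12.57 against 12.78 to 13.33 (0.59, SE 0.16, adjusted p = 0.0138). Id1, which responds to bone morphogenetic protein signals like Hamp, was higher by 1.65 (SE 0.31, adjusted p = 0.000735).

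Of 27 acute phase genes, which hepatocytes induce in inflammation, 10 were higher and 0 lower (median 0.46). Serum amyloid A1, Saa1, read 10.18, 10.27, 9.61 and 10.45 in wild type and 11.97 to 14.10 (median 13.61) in knockout (3.14, SE 0.57, adjusted p = 0.000622). Saa2 was higher by 4.09 (SE 1.09, adjusted p = 0.0115), with knockout arrays from 9.65 to 14.18. Its call ended without knockout replicates 4, 5 and 7 (0.104, and 0.00109 to 0.104 over all alternatives), and both genes are close paralogs. Without these 3 arrays 8 members were higher. Of 36 genes of complement and coagulation 9 were higher and 2 lower, by small amounts: the kininogen Kng1 by 0.50 (SE 0.050, adjusted p = 3.29e-07) and the mannose-binding lectin Mbl2 by 0.58 (SE 0.087, adjusted p = 6.41e-05).

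Of 23 genes of p53 and growth arrest 9 were higher and 1 lower (median 0.42), and 7 and 1 without knockout replicates 4, 5 and 7. The cyclin-dependent kinase inhibitor Cdkn1a read 7.11, 7.01, 6.64 and 6.72 in wild type and 8.01 to 9.19 (median 8.44) in knockout (1.64, SE 0.34, adjusted p = 0.00197). Btg2, an antiproliferative gene that is also counted as immediate-early, read 6.68 to 7.16 against 7.86 to 8.99 (1.51, SE 0.22, adjusted p = 6.36e-05). Of 28 immediate-early genes 7 were higher and 1 lower (3 and 2 without those arrays), and Fos (1.18) and Jun (0.74) did not pass. In 31 proliferation genes 0 were higher and 2 lower, by little: Cdk2 (-0.33, adjusted p = 0.000517) and Foxm1 (-0.25, adjusted p = 0.0225). The Foxm1 call ended without wild-type replicate 3 or 4 (0.0639 and 0.0505) and without knockout replicates 4, 5 and 7 (0.2), with 0.00213 to 0.2 over all alternatives. Mki67 read 4.28 to 5.25 against 4.08 to 7.07 and did not pass (0.86, adjusted p = 0.275).

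Markers of cells other than hepatocytes were higher in knockout in several lists. Of 31 macrophage markers 19 were higher and 0 lower (median 1.93). In wild type 26 of the 31 were above the filter's level in each array, and Mmp12 and Mmp13 were in none. The lysosomal protease Ctss read 8.46, 8.54, 8.34 and 8.41 in wild type and 9.51 to 12.02 (median 11.12) in knockout (2.50, SE 0.53, adjusted p = 0.00218). The complement component C1qb, made by macrophages, read 6.94 to 7.28 against 8.05 to 10.54 (2.22, SE 0.48, adjusted p = 0.00236). Resident Kupffer cells are marked by Clec4f (1.26, adjusted p = 0.00881) and Timd4 (1.93, adjusted p = 0.00413), which were both higher. Trem2, which marks macrophages that handle lipids, did not pass, at 5.35 to 5.47 against 5.25 to 5.52 (adjusted p = 0.965). Even in knockout replicate 2, the lowest of the 7, the list mean of 6.87 was above the 4 wild-type values. Without knockout replicates 4, 5 and 7, 6 markers were called and the median was 1.18.

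Of 7 MHC class II genes, which present antigen, 4 were higher and 0 lower (median 2.10), and none was called without knockout replicates 4, 5 and 7 (median 1.06). H2-Eb1 read 6.61, 6.01, 6.19 and 6.14 in wild type and 6.76 to 10.94 (median 9.14) in knockout (2.67, SE 0.74, adjusted p = 0.0141, and 0.147 without those arrays, within 0.00109 to 0.147 over all alternatives). The 32 interferon-induced genes had a median of 0.87, but only 4 were called, and none without those arrays. Gbp2, a guanylate-binding protein, read 4.34 to 4.89 in wild type and 5.38 to 10.01 in knockout (2.98, SE 0.93, adjusted p = 0.028). The call of Gbp2 was lost when 1 array was left out, among knockout replicates 4, 5 and 7 or wild-type replicates 1, 3 and 4 (0.0518 to 0.0723) and without the 3 knockout arrays together (0.25), with 0.00236 to 0.25 over all alternatives. For lymphocytes, the T cell gene Cd3e was 0.03 apart (adjusted p = 0.828), and Ms4a1, Nkg7, Gzma and Klrd1 were below the filter's level in every wild-type array. Of 14 lymphocyte markers 3 were higher, led by the leukocyte antigen Ptprc (2.41, adjusted p = 0.00559), and Ighm was lower (-2.11, SE 0.29, adjusted p = 3.12e-05), in 2 of its 11 probe sets. Ptprc was not called without knockout replicates 4, 5 and 7 (0.0863, and 0.000222 to 0.0863 over all alternatives). Of 8 neutrophil markers 1 was higher and 0 lower.

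Of 30 markers of stellate cells and scar 15 were higher and 0 lower (median 0.66), and 9 without knockout replicates 4, 5 and 7. Lrat, which stores retinol in quiescent stellate cells, read 6.49, 7.04, 6.72 and 6.58 in wild type and 8.15 to 8.67 (median 8.22) in knockout (1.66, SE 0.14, adjusted p = 1.29e-08). The matrix protein Tgfbi read 7.66 to 7.89 against 8.82 to 9.79 (1.502, SE 0.22, adjusted p = 6.56e-05). The myofibroblast marker Acta2 (-0.07) and the collagen gene Col1a1 (0.26) did not pass. Of 29 endothelial markers 18 were higher and 1 lower (median 0.45), and 10 and 0 without those arrays. Cdh5, the cadherin of endothelium, read 6.08, 6.46, 6.11 and 6.04 against 6.68 to 7.18 (median 6.88), a difference of 0.77 (SE 0.15, adjusted p = 0.000816). Of 14 markers of cholangiocytes and progenitors 4 were higher and 3 lower, among them Cd24a (1.44, adjusted p = 0.00618, and 0.0802 without those arrays, within 0.000221 to 0.0802 over all alternatives) and Prom1, a surface protein of progenitors (-2.24, SE 0.35, adjusted p = 0.000128). The 3 erythroid markers showed no call, and of 9 markers of other tissues Cela1 (-1.85) and Fabp2 (-1.25), both expressed in these wild-type livers, were lower.

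**Figure D5:**
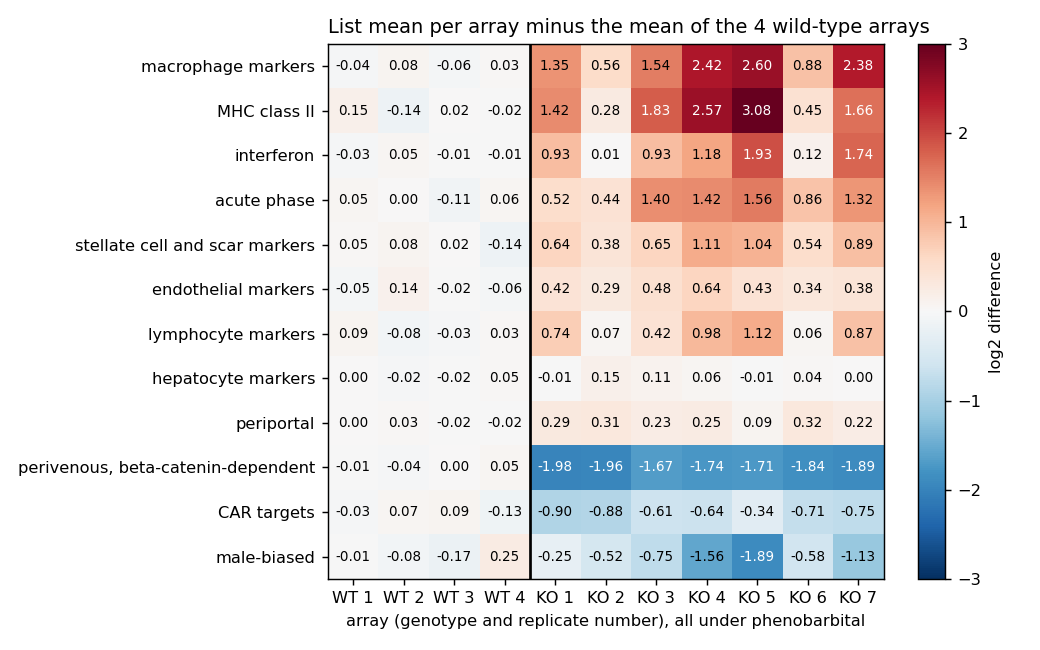
Mean log2 signal of 12 gene lists in each array under phenobarbital, given as the difference from the mean of the 4 wild-type arrays (WT 1 to 4) and coloured from blue (lower) to red (higher), with 7 knockout arrays (KO 1 to 7). The perivenous list lies between -1.98 and -1.67 in all knockout arrays, whereas the macrophage list ranges from 0.56 in replicate 2 to 2.60 in replicate 5 and the male-biased list from -0.25 in replicate 1 to -1.89 in replicate 5.

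The difference between the lists lay also in how even they were over the 7 knockout arrays. Relative to the wild-type mean, the perivenous list was lower by 1.67 to 1.98 and the periportal list higher by 0.09 to 0.32 in each of them. CAR targets lay between -0.90 and -0.34. Macrophage, MHC class II, interferon and lymphocyte lists had their lowest values in knockout replicates 2 and 6, where the interferon list was 0.01 and 0.12 above wild type. The acute phase list was also uneven, from 0.44 in replicate 2 to 1.56 in replicate 5. The part of immune cells in the acute phase, interferon and male-biased results was not tested.

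Among 25 fetal and tumour genes 5 were higher and 4 lower, and Afp, the fetal albumin, read 4.33 to 5.16 against 3.56 to 6.66 (0.16, adjusted p = 0.849). Of 23 Nrf2 targets 3 were higher, among them Osgin1 (1.06, SE 0.20, adjusted p = 0.000972), and 3 lower. Of 25 genes of the unfolded protein response 1 was higher and 4 lower, led by the oxidoreductase Ero1b (-0.62, adjusted p = 0.000392). Of 19 clock genes only Rora was called (0.36, adjusted p = 0.00964). Of 31 respiratory chain genes 2 were lower and 0 higher, Ndufb3 (-0.39) and cytochrome c, Cycs (-0.25).

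Since the floxed allele and the Cre transgene came from other lines, genes near Ctnnb1 on chromosome 9 and near Alb on chromosome 5 were looked at by position. Within 20 Mb of Ctnnb1 38 of 231 genes were called (16.5%), and within 20 Mb of Alb 53 of 189 (28.04%). Over single chromosomes the share was 15.9% (17) to 25.9% (X). The region of Alb holds the chemokine Cxcl1, higher with 9.85 to 11.27 against 7.88 to 8.72 (2.37, SE 0.38, adjusted p = 0.000166), Sult1e1 and the putative magnesium transporter Nipal1 (2.57, SE 0.34, adjusted p = 1.85e-05). In the region of Ctnnb1, Cdcp1, a transmembrane protein, was higher by 1.26 (SE 0.12, adjusted p = 2.01e-07) and Gpd1l lower by 0.67 (SE 0.081, adjusted p = 4.81e-06). Where the Cre transgene lies in the genome is not given, and strain origin of these regions was not tested.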

How the data were processed

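Liver RNA of male mice was measured in 23 samples of 4 groups, 1 Affymetrix array per sample. The authors deposited 1 log2 signal for each probe set, made with RMA and affy, per the submitters' processing notes. RMA subtracts background and equalizes array distributions, which narrows large differences near background. Versions are not given in the sources used here. Array medians were 5.09 to 5.14. Of 45037 probe sets 34945 had 1 gene, 932 several and 9160 none. Each of 18193 genes was represented by its probe set of highest mean. The 13826 genes above their array's 40th percentile in at least 4 arrays were tested, and 4367 were left out.

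Linear models with 1 mean per group over all 23 arrays and moderated statistics were fitted with limma 3.58.1 (R 4.3.3). Adjusted p values are Benjamini-Hochberg values over all genes tested, and a gene was called under 0.05. All tests were two-sided, SE is the standard error of the log2 difference, and intervals cover 95%. Scripts were checked on simulated data. Values raised to the filter's level served genes that lay below it in a group.

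The members of the comparison and the gene lists were chosen with earlier results of these data known. Genes were named by rule: a fixed list, the 12 largest rises and falls without overlap, up to 3 called members per list, the 8 largest interactions of either sign, up to 6 opposite genes and up to 6 near each of Ctnnb1 and Alb. Acta2, Aldh1a7, Arg1, Cd3e, Cdh2, Clec4f, Col1a1, Cps1, Ctnna1, Fos, Hal, Hmgcs1, Jun, Jup, Notum, Pck1, Rnf43, Srebf2, Timd4, Trem2, Znrf3 and markers named as below a level were chosen after their values were seen, and were not followed through the alternatives one by one. Alternatives were other filters, normalizations, probe set rules, priors, weights, samples and left-out arrays.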

Additional observations from a re-analysis of the deposited data

Results flagged for a closer look

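Single arrays stood apart from the rest of their group, by Dixon's test at the 95% level, for 14 of 312 combinations of gene and group under phenobarbital, where chance gives about 1 in 20. In wild type the highest array was the one apart for Ahr (replicate 2, 10.35), Aldh1b1 (replicate 2, 8.92) and Cycs (replicate 2, 12.70). The lowest wild-type array was the one apart for C2 (replicate 3, 10.21), Cbr3 (replicate 3, 4.44), Cdcp1 (replicate 2, 4.59), Mbl2 (replicate 4, 11.95) and Rxra (replicate 2, 8.82). In knockout the highest array stood apart for Cyp2b13 (replicate 5, 8.92), Ddit4 (replicate 2, 10.64), Kng1 (replicate 6, 13.54) and Moxd1 (replicate 1, 6.54). The lowest knockout array stood apart for Cycs (replicate 6, 12.22) and Slco1b2 (replicate 7, 10.81). The values are log2 signals. Wild-type replicate 2 accounted for 5 of the flags.

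The genotype difference under phenobarbital differed from that without the drug, by the interaction term in limma, for 28 of the 156 named genes. Some genes were named because their interaction was called, so this share is set by the choice. Over all genes tested it was 121 of 13826 (0.875%). The interaction, on the log2 scale, was positive for Egr1 (3.22), Cyp2c37 (2.34), Tspyl4 (1.77), Dnaic1 (1.70), Rab5c (1.29), Aldh1b1 (1.17), Slc1a2 (1.16), Rnd1 (1.12) and Lgr5 (1.09). It was negative for Cyp2b10 (-3.95), Sult1e1 (-3.86), Ackr3 (-3.84), Cyp2b9 (-3.69), Pnliprp1 (-3.59), Lratd1 (-3.47), Serpinb1a (-3.44), Cyp2b13 (-2.95) and Prom1 (-2.89). Smaller negative values were found for Cyp2c65 (-2.83), Nebl (-2.83), Fam171a1 (-2.75), Kcnk1 (-2.62), Abcc4 (-2.35), Meg3 (-2.18), Ighm (-1.99), Gadd45b (-1.82), Tnfrsf19 (-1.58) and Rian (-1.20). The calls of Abcc4, Aldh1b1, Cyp2b13, Cyp2b9, Cyp2c37, Ighm, Kcnk1, Rian, Rnd1 and Slc1a2 ended under at least 1 alternative, and the other 18 kept theirs under each of the 34 run. Pnliprp1, Fam171a1 and Tnfrsf19 were below the filter's level in every knockout array under phenobarbital, so the size of their interaction is uncertain. Serpinb1a, Rian, Kcnk1 and Dnaic1 lay near that level in knockout under phenobarbital, which limits the size of theirs too.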

How the results depend on the processing

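The 2772 genes called under phenobarbital and the 121 called interactions were recomputed under each alternative. Testing every probe set gave 4410 and 247, weights for each array 4574 and 323, and 1 weight per group 4576 for the first count. A minimum of 2-fold gave 404 and 42. Without 1 array at a time the counts were 1798 to 3287 and 63 to 146, lowest without wild-type replicate 3, and 1846 and 78 without wild-type replicate 4. Without wild-type replicate 1 they were 1882 and 75. Leaving out knockout replicates 4, 5 and 7, chosen after seeing the data, gave 1266 called genes, and leaving out knockout control replicates 2, 6 and 7, chosen likewise, gave 273 interactions. Fewer arrays or more probe sets are part of how these alternatives are built; for the weights the cause was not tested. The share of higher genes among those called was 59.5%, and 52.6% after quantile normalization.

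Samples with the same replicate number did not deviate together: their correlations were -0.172 to 0.0572 over 4 pairs, and 0 arrays correlated best with their own number, so the numbers were not taken to pair the samples. With the number as a replicate block 1606 genes were called, 1547 of them among the 2772. The calls of Ocln (adjusted p = 0.0716), Cd44 (0.145), Hsd3b5 (0.11), Elovl3 (0.124) and Foxm1 (0.111) also ended under this block. Those of Igfbp2 (0.0812), Gstm2 (0.0547), H2-Eb1 (0.0823), Gbp2 (0.0994) and Aldh18a1 (0.103) ended too. Of 7 MHC class II genes 0 were called under it. The interactions of Kcnk1 and Cyp2c37 were not called either (0.0748 for each).

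Of 156 named genes 140 were called, and 97 of these stayed called under each of up to 35 alternatives. Many genes were named because they were called, so the share called is set by the choice, while it was 20% over all genes tested. Of 16 named genes that were not called 4 passed under at least 1 alternative. No called difference or interaction of a named gene changed sign, while the differences of Afp, Cyp2b9, Dnaic1 and Tspyl4, none of them called, lay on both sides of 0 over the alternatives. Genes near background are limited by RMA's floor, and those below the filter's level in a whole group have no reliable size.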
